A study of Mus musculus with 38 samples.

Results

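6 genes of mouse chromosome 8 were followed mouse by mouse in the hippocampus of 38 mice: Zswim4, Scoc, Man2b1, Pcnx2, Coq9 and Plvap. They were chosen by their difference between the anle138b-treated and the placebo-treated APPPS1ΔE9 mice at 6 months and by their shared chromosome, out of 48709 genes with a deposited read count. All 6 passed the filter on low counts, which 18232 genes passed over all mice, 998 of them on chromosome 8. The question was whether their levels followed chow or genotype, or fell in steps that cut across the groups.

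APPPS1ΔE9 mice carry mutant APP among their transgenes, which the mouse prion promoter drives, and develop amyloid plaques with age. The labels give the strain of all mice as C57BL/6, and the methods of the study name wild-type (WT) littermates as controls. Anle138b, a diphenylpyrazole that modulates the aggregation of amyloid proteins, was given in food pellets, and placebo mice received pellets without it. The pre-plaque group, analyzed at 6 months of age, held 4 WT mice on placebo and 4 on anle138b, and likewise 4 and 4 APPPS1ΔE9 mice. The post-plaque group, analyzed at 10 months, held 5 and 5 WT and 5 and 7 APPPS1ΔE9 mice in this order. In each cohort the chow lasted 4 months. For the 4 placebo-treated WT mice of 6 months the title says WT while another label gives the genotype of the transgenic line, and here they count as WT.

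Transgenic lines are kept by crossing to an inbred strain, and stretches of chromosome from another strain can travel along with them. A gene in such a stretch can differ in expression between mice because of a nearby sequence variant, and its level then tends to take a few discrete values that depend on how many copies of each variant a mouse carries. A variant that acts on several neighboring genes, or several linked variants, makes such genes move together from mouse to mouse. The DNA of these mice was not analysed here, so that this origin was not tested for any gene below.

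The 6 genes have unrelated roles. Zswim4 encodes a protein with a SWIM-type zinc finger. Scoc encodes a short coiled-coil protein of the Golgi that takes part in autophagy. Man2b1 encodes the lysosomal alpha-mannosidase, which trims mannose from glycoproteins and whose loss causes the storage disease alpha-mannosidosis. Pcnx2 encodes a large membrane protein of the pecanex family. Coq9 encodes a lipid-binding mitochondrial protein needed to make coenzyme Q. Plvap encodes the endothelial protein that forms the diaphragms of fenestrae and caveolae, which is low in the vessels of the blood-brain barrier and high in the fenestrated vessels of the choroid plexus.

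In the GENCODE M21 annotation of GRCm38, the build of mm10, the genes are spread over the distal part of chromosome 8. Plvap (ENSMUSG00000034845) lies at chr8:71497765-71511752, Scoc (ENSMUSG00000063253) at chr8:83430084-83458391 and Zswim4 (ENSMUSG00000035671) at chr8:84210678-84237055, all on the minus strand. Man2b1 (ENSMUSG00000005142) lies at chr8:85083270-85098282 and Coq9 (ENSMUSG00000031782) at chr8:94838321-94854895 on the plus strand, and Pcnx2 (ENSMUSG00000060212) at chr8:125751508-125898317 on the minus strand. Measured from the lower end of Zswim4, Scoc begins 0.78 Mb before it and Man2b1 0.87 Mb after it, while Pcnx2 begins 41.54 Mb away. All 6 are protein coding. Pcnx2 overlaps A730098A19Rik, Coq9 overlaps Ciapin1 and Plvap overlaps Gtpbp3, each on the opposite strand. Since the sources do not say whether reads were counted by strand, reads of these 3 pairs may not be told apart.

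Zswim4 and Scoc, neighbors whose levels mirrored each other in the results below, are shown by the sequence around their starts, from 250 bases before to 50 bases after it, 5′ to 3′ on the gene's strand, with each CG dinucleotide in capitals. The sequences are those of RefSeq for GRCm38.p6, and cover chr8:84236993-84237292 for Zswim4, chr8:83458347-83458646 for the outer start of Scoc and chr8:83442613-83442912 for its inner start.
Zswim4: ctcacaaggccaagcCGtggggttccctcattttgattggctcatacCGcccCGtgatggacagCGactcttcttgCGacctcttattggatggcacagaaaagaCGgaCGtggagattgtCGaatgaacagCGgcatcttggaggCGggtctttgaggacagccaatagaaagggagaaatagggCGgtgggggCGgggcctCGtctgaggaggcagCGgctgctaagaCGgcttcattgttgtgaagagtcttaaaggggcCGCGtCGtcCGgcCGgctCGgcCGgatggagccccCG
Scoc, outer start: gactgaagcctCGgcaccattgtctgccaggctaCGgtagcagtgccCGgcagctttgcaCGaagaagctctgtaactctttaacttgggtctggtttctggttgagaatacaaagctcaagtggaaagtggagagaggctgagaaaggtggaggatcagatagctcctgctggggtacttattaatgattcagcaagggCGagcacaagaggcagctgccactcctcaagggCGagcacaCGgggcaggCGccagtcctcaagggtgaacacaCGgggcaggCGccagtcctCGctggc
Scoc, inner start: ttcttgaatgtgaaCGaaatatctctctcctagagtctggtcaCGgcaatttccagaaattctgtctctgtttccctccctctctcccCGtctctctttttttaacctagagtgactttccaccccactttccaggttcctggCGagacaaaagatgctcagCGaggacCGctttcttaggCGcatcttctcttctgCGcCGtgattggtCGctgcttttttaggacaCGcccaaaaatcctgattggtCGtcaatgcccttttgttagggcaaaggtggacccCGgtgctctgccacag
The Zswim4 window holds 23 CG, and 21.5% of all 32851 windows in the table hold as many or more. The Scoc windows hold 11 and 13 CG, counts that 41.4% and 37.9% of windows reach. The median window holds 7. The letters TATAAA, searched on both strands, are in none of these 3 windows and in 13.6% of all windows. Windows of 5 of the 6 genes were in the table. The Coq9 window holds 39 CG, which 4.45% of windows reach, the Man2b1 window 8 and the Pcnx2 window 9.

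Total counts were between 15847985 and 31895808 per mouse, with a median of 24530658. The genotype labels were borne out by the transgenes: App, whose counts can include reads of the transgene, was between 1506 and 1809 CPM (counts scaled to a common library total, with TMM normalization) in the 18 WT mice and between 3228 and 4318 CPM in the 20 APPPS1ΔE9 mice. Prnp, whose promoter drives the transgenes, was between 918.6 and 1232 CPM in WT and between 2238 and 2928 CPM in APPPS1ΔE9 mice. In 12 of the 38 mice the Y-linked gene Ddx3y was at most 0.586 CPM, although the methods of the study describe male mice. Of these 12 mice, 11 were WT and 1 was an anle138b-treated APPPS1ΔE9 mouse of 10 months, so that this difference went with genotype. Sequencing lanes largely followed the groups. At 6 months the placebo-treated APPPS1ΔE9 mice were all in lane 5 and the anle138b-treated ones all in lane 6. Lane and chow thus cannot be told apart there. At 10 months the WT mice were in lanes 3 and 4 and the APPPS1ΔE9 mice in lanes 5 and 6. Lane and genotype thus cannot be told apart at 10 months. All 6 neuronal markers (such as Snap25 and Prox1) were detected, with a sum of 5613 to 7058 CPM at 10 months. The summed level of 8 choroid plexus markers (such as Ttr and Kl) varied from 70.0 to 8040 CPM between 6-month mice and was at most 311.5 CPM at 10 months except in 1 mouse, with 4402 CPM. The methods name WT littermates as controls, but the labels do not give the litter or cage of a mouse. The p-values measure the spread between the mice of these groups and treat them as independent. Any likeness of mice from the same litter or cage is not taken into account.

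Per length, Coq9 was the most expressed of the 6 genes, with a mean of 22.1 ± 2.66 FPKM (CPM per kilobase of exon, SD over 38 mice). It was followed by Pcnx2 with 11.5 ± 1.82 FPKM, Scoc with 10.0 ± 1.95 FPKM, Man2b1 with 8.003 ± 1.38 FPKM, Zswim4 with 6.61 ± 2.37 FPKM and Plvap with 3.98 ± 1.17 FPKM. The mean levels of Pcnx2 and Scoc, and those of Man2b1 and Zswim4, differed by less than the larger SD of the pair. Read counts were between 84 and 404 for Plvap, the lowest, and at least 300 per mouse for each other member. In relative terms Zswim4 and Plvap varied most between mice.

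In the comparison that chose the genes, Zswim4 differed most. At 6 months the 4 anle138b-treated APPPS1ΔE9 mice had 51.3, 48.0, 45.4 and 44.8 CPM, and the 4 placebo-treated ones had 24.7, 27.2, 23.7 and 22.2 CPM. The log2 fold change of anle138b over placebo was 0.95 ± 0.07 (SE, edgeR), given here as a description since it served to choose the gene. Scoc went the other way, from 48.5, 45.05, 50.9 and 48.6 CPM on placebo to 33.1, 33.6, 33.8 and 32.2 CPM on anle138b, a log2 fold change of -0.54 ± 0.05. Plvap (0.67 ± 0.10) and Coq9 (0.25 ± 0.04) were higher and Man2b1 (-0.44 ± 0.05) and Pcnx2 (-0.39 ± 0.06) lower with anle138b. None of the 6 genes overlapped between the groups. Over all genes of this comparison 6.14% did not overlap and 0.0529% (9 of 17009) passed an adjusted p of 0.1, and nothing is read from the members' counts here. The sum of the choroid plexus markers had a median of 461 CPM on placebo and 6499 CPM on anle138b. Its ranges overlapped, at 69.97 to 6774 CPM on placebo and 177.2 to 7542 CPM on anle138b. The sum of 6 markers of plaque-associated microglia (such as Cst7 and Trem2) was 61.3 to 112.8 CPM on placebo. On anle138b it was 45.9 to 69.1 CPM, a range that overlapped with that on placebo. The part of these cells in the differences was not tested, and in bulk tissue fewer cells of a type and less RNA per cell cannot be told apart.

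**Figure D1:**
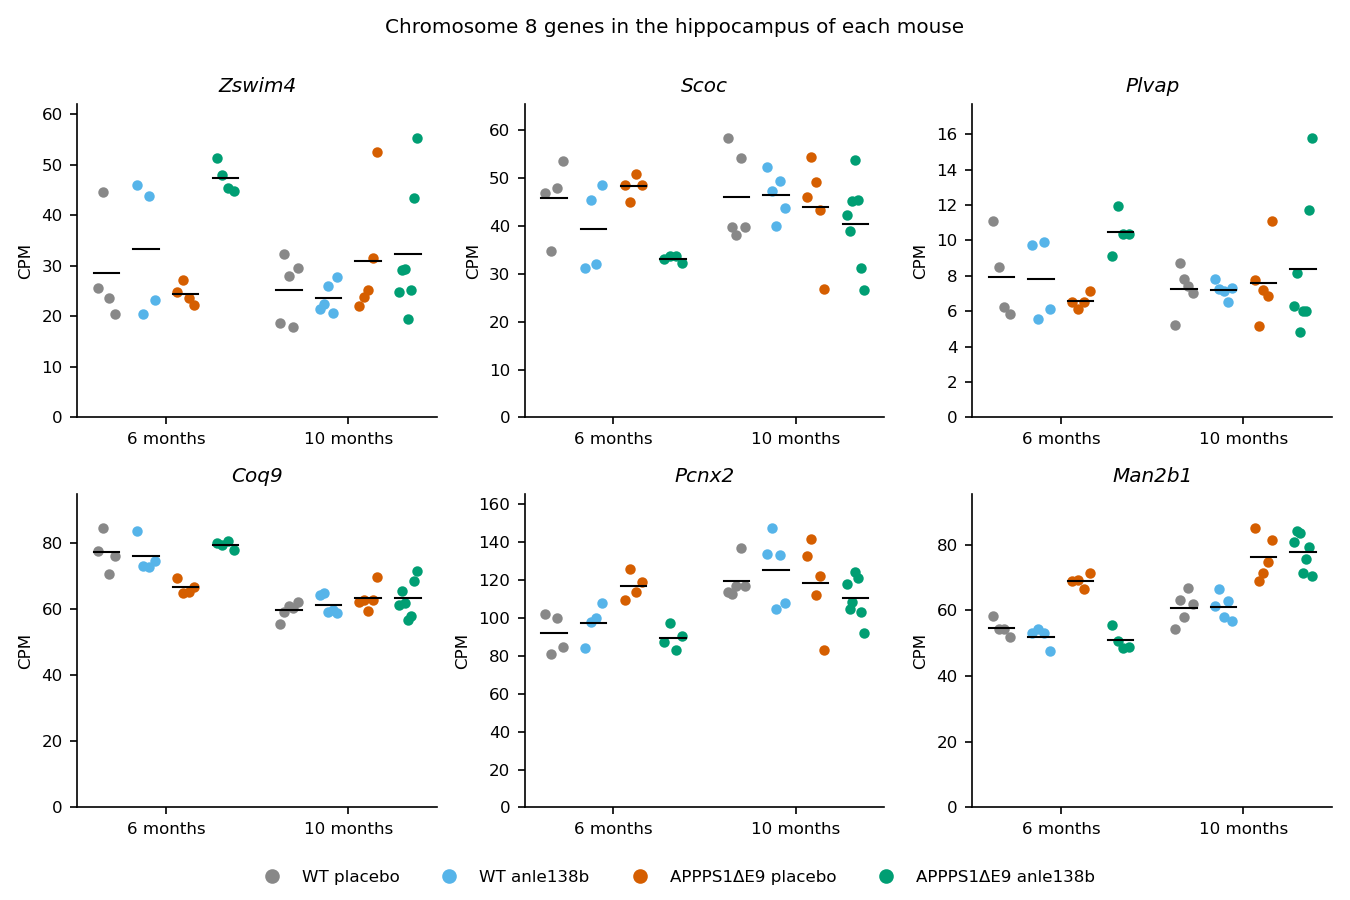
Level of each gene (y axis, TMM-normalized CPM from 0) in each of the 38 mice (points), by cohort, with genotype and chow given by color and the group mean as a black line. The 6-month WT mice fall at the same high and low Zswim4 levels as the 2 groups of APPPS1ΔE9 mice, and 3 APPPS1ΔE9 mice of 10 months, from both chows, are above 43 CPM.

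The 8 WT mice of 6 months, which that comparison did not use, took the same levels of Zswim4 as the APPPS1ΔE9 mice, irrespective of chow. The placebo-treated WT mice had 25.6, 44.5, 23.6 and 20.5 CPM, and the anle138b-treated WT mice had 45.9, 20.4, 43.8 and 23.3 CPM. Thus 5 WT mice were between 20.4 and 25.6 CPM and 3 were between 43.8 and 45.9 CPM, with none in between and with mice of both chows on either side. Scoc showed the reverse in the same mice. It was 34.8 CPM in the placebo-treated WT mouse with 44.5 CPM of Zswim4, and 31.1 and 32.1 CPM in the anle138b-treated WT mice with 45.9 and 43.8 CPM. In the 5 other WT mice Scoc was between 45.45 and 53.6 CPM.

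Plvap followed Zswim4 less closely in these WT mice. It was 8.50, 9.75 and 9.89 CPM in the 3 WT mice with high Zswim4, and between 5.58 and 6.25 CPM in 4 of the 5 others. The exception was a placebo-treated WT mouse with 11.1 CPM of Plvap and 25.6 CPM of Zswim4. Coq9 was 84.6 and 83.6 CPM in 2 of the 3 WT mice with high Zswim4 and 72.6 CPM in the other, against 70.5 to 77.45 CPM in the remaining 5. Pcnx2 was 81.0, 83.97 and 99.9 CPM in the 3 mice, against at least 84.5 CPM in the 5 others, so that these ranges overlapped. Man2b1 stayed within 47.7 and 58.3 CPM in all 8 WT mice, with 52.9 to 54.2 CPM in the 3 mice with high Zswim4.

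At 10 months high Zswim4 occurred in both APPPS1ΔE9 groups and in neither WT group. The placebo-treated WT mice had 18.7, 32.4, 27.9, 17.8 and 29.5 CPM and the anle138b-treated WT mice 21.5, 22.3, 26.02, 20.6 and 27.7 CPM. The placebo-treated APPPS1ΔE9 mice had 21.9, 23.8, 25.2, 31.5 and 52.4 CPM. The anle138b-treated APPPS1ΔE9 mice ranged from 19.5 to 55.3 CPM with a median of 29.1 CPM, and 2 of the 7 were at 43.5 and 55.3 CPM. The mice at 52.4, 43.5 and 55.3 CPM are named high mice A, B and C in what follows, after their Zswim4 values. The 19 other mice formed a series from 17.8 to 32.4 CPM without a comparable gap.

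Scoc was again the mirror image. It was 26.8, 31.3 and 26.65 CPM in high mice A, B and C, below all of the 19 others, which were between 38.1 and 58.4 CPM. The placebo-treated WT mice had 58.4, 39.8, 38.1, 54.15 and 39.85 CPM of Scoc, in which the 2 mice with the lowest Zswim4 had the highest Scoc. High mice A, B and C also had the 3 highest levels of Plvap, at 11.1, 11.7 and 15.8 CPM against at most 8.71 CPM in the others. They had the 3 highest levels of Coq9 at this age as well, at 69.65, 68.4 and 71.6 CPM against at most 65.3 CPM. For Pcnx2 they were at 83.2, 102.9 and 92.3 CPM, the 3 lowest of the 22 mice, against 104.7 to 147.7 CPM in the rest. Man2b1 was 81.3, 79.1 and 70.3 CPM in them, within the range of the other APPPS1ΔE9 mice. In the summed markers of 10 cell types and regions, these 3 mice ranked between 6 and 22 of 22 mice. The thalamus markers were highest in mice A and C, at 106.9 and 106.2 CPM, and 25.25 CPM in mouse B, and their part in the levels was not tested.

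**Figure D2:**
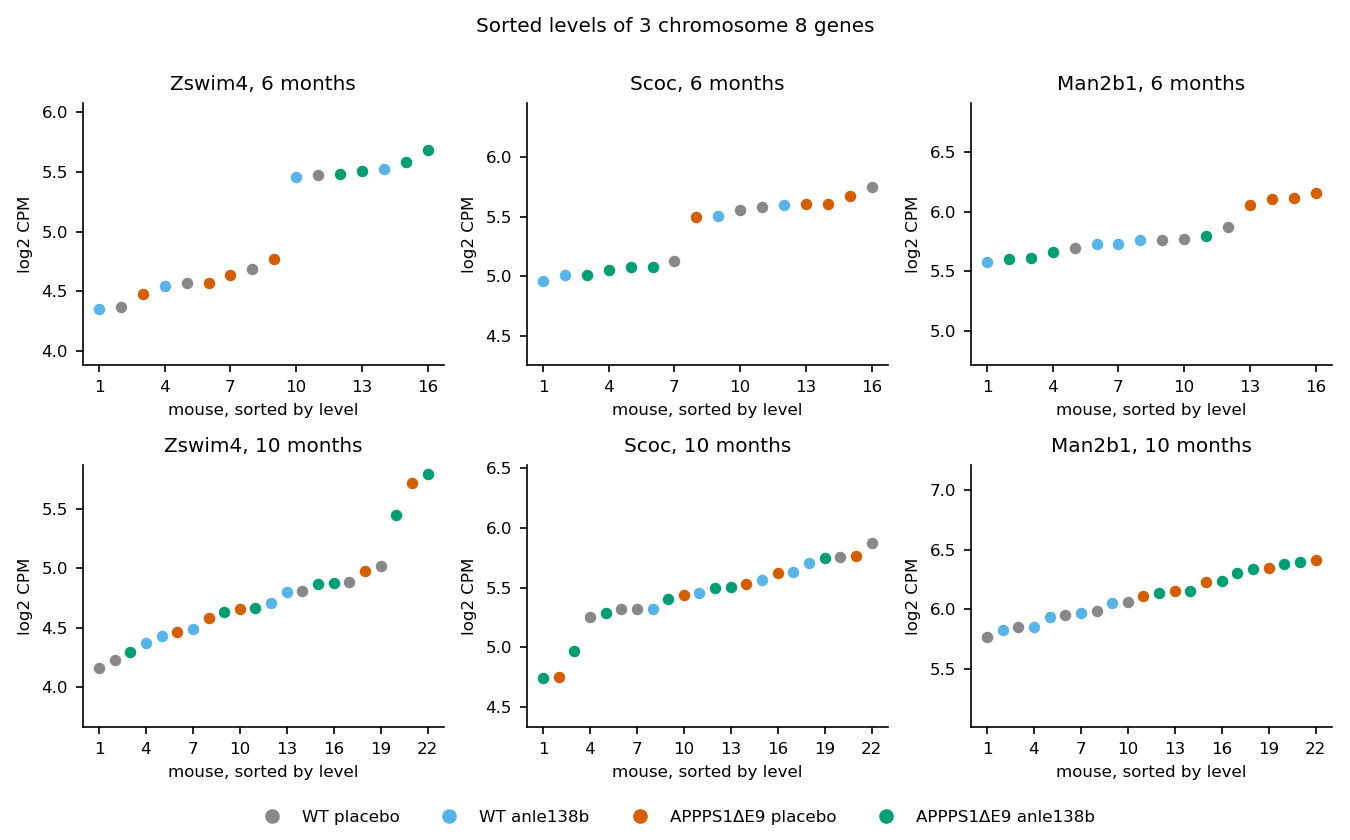
Mice sorted by their level (log2 CPM, y axis) of Zswim4, Scoc and Man2b1 in the pre-plaque (top) and post-plaque (bottom) cohort, colored by group. At 6 months a gap of 0.69 log2 units separates 7 mice with high from 9 mice with low Zswim4, Scoc shows the reverse order, and the 4 mice with the highest Man2b1 are the placebo-treated APPPS1ΔE9 mice.

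The step was measured as the largest gap between neighbors when the mice of a cohort are sorted by log2 CPM. For Zswim4 at 6 months it was 0.69, from 27.2 to 43.8 CPM, or 51.6% of the whole range. The side above the gap held 1 of 4 WT mice on placebo and 2 of 4 on anle138b, and 0 of 4 APPPS1ΔE9 mice on placebo and 4 of 4 on anle138b. The best split of the sorted values in 2 took up 95.2% of the variance of Zswim4, and the median over all genes was 70.0%. For Scoc the gap was 0.37, from 34.8 to 45.05 CPM, and the split took up 94.8%. All 16 mice were on opposite sides of the gaps of the 2 genes. For Plvap 15 of 16 mice were on the same side as for Zswim4, and for Pcnx2 13 were on the opposite side. Coq9 put only 10 mice on the same side and 6 on the opposite one, and Man2b1 put 5 and 11. The members were chosen on 8 of these mice, so that the sides of those 8 were not independent of the choice. Nor were the gaps and splits over the 16 mice, and nothing is read from their size beside that of all genes. All 8 WT mice were on opposite sides for Zswim4 and Scoc, and the 1 mouse that differed for Plvap was a WT mouse. The 8 WT mice were also taken alone, a choice made after the values were seen. There the gap was 0.77 for Zswim4 and 0.38 for Scoc, larger than in 93.8% and 79.0% of all genes. The split took up 95.7% and 92.9%, against a median of 76.65% over all genes. The corresponding values were 91.8% for Plvap, 91.6% for Pcnx2, 80.8% for Coq9 and 61% for Man2b1. In none of these genes were the 3 WT mice with high Zswim4 together at an end of the sorted values. These splits thus parted the WT mice otherwise than that of Zswim4 did.

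At 10 months the levels were less clearly split. The gap of Zswim4 was 0.42, from 32.4 to 43.5 CPM, and that of Scoc 0.28, from 31.3 to 38.1 CPM, with all 22 mice on opposite sides for the 2 genes. The best split took up 68.6% of the variance of Zswim4 and 66.3% of that of Scoc, near the median of 70.1% over all genes. Coq9 put all 22 mice on the same side as Zswim4 and Pcnx2 put 21 on the opposite side. Plvap put 20 on the same side, and Man2b1 put 7 on the same and 15 on the opposite side. The sides were unequal, with 3 mice above the gap for Zswim4 and Coq9, and 3 below it for Scoc. Pcnx2 had 2 mice below its gap, Plvap 1 above it and Man2b1 4 below it. With so few mice beyond a gap, the larger count is high whichever mice these are, and it was not tested. Man2b1 had no gap above 0.08 at this age, and its largest gap at 6 months, 0.19, set the 4 placebo-treated APPPS1ΔE9 mice (66.6 to 71.3 CPM) apart from the 12 other mice (47.7 to 58.3 CPM).

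Within the groups of 10-month mice, none of which served to choose the genes, many pairs of members varied together. Such correlation was also found with other genes, to an extent that varied by member. Over the mice of both ages, an absolute r over 0.5 was reached with Pcnx2 by 14.0% of all genes. The shares were 10.5% with Scoc, 7.42% with Zswim4, 3.45% with Plvap, 0.845% with Man2b1 and 0.631% with Coq9. Only the pairs of members were put through the test below, and the count that passed is not read as particular to them. Of 15 pairs, 9 had a correlation past an adjusted p of 0.1 (two-sided permutation tests of deviations from the group means, mice permuted within groups, adjusted over the 15 pairs), and the same 9 passed with ranks. The 6 others were the 5 pairs with Man2b1 and the pair of Pcnx2 and Coq9, which had r of -0.36 (adjusted p = 0.168, permutation test) and rho of -0.17 (adjusted p = 0.542), and r of 0.26 among the 19 mice below the Zswim4 gap. The closest pair was Zswim4 and Scoc, with a Pearson r of -0.95 (p = 1e-05, the smallest that 100000 permutations can give, adjusted p = 0.00015) and a Spearman rho of -0.91 (p = 1e-05, adjusted p = 0.00015) over 22 mice. Without the 2 mice farthest from the median of Zswim4 it was -0.91, and among the 19 mice below the gap it was -0.86. Zswim4 and Pcnx2 had r of -0.79 (adjusted p = 0.0003, permutation test) and rho of -0.76 (adjusted p = 0.000375), and r of -0.65 without the 2 mice and -0.60 among the 19.

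The relations of Zswim4 with Coq9 and Plvap were weaker without high mice A, B and C. Zswim4 had r of 0.73 (adjusted p = 0.00217, permutation test) and rho of 0.59 (adjusted p = 0.0172) with Coq9, and r of 0.78 (adjusted p = 0.00216) and rho of 0.62 (adjusted p = 0.0172) with Plvap. Among the 19 other mice r was 0.32 and 0.33. Scoc and Plvap had r of -0.83, and still -0.58 among the 19. Man2b1 passed with none of the other 5 genes. Its r over the 22 mice was -0.02 with Zswim4 (permutation p = 0.943, adjusted p = 0.943), and 0.32 with Coq9 (permutation p = 0.18, adjusted p = 0.245). Among the 19 mice r of Man2b1 was 0.05 with Zswim4, but 0.64 with Coq9 and 0.45 with Plvap, given without a test. The gene lies between those of Zswim4 and Coq9 on the chromosome. Within the sequencing lanes, r of Zswim4 with Scoc was -0.87 in lane 4, -0.93 in lane 5 and -0.98 in lane 6, with 6 mice of 10 months each, and that with Pcnx2 was -0.74, -0.91 and -0.94. For Coq9 and Plvap the relation held in lanes 5 and 6 (0.88 and 0.95, and 0.78 and 0.87) and not in lane 4 (-0.23 and 0.11), which held none of the high mice A, B and C. Lane 3 held only 4 mice of 1 group.

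**Figure D3:**
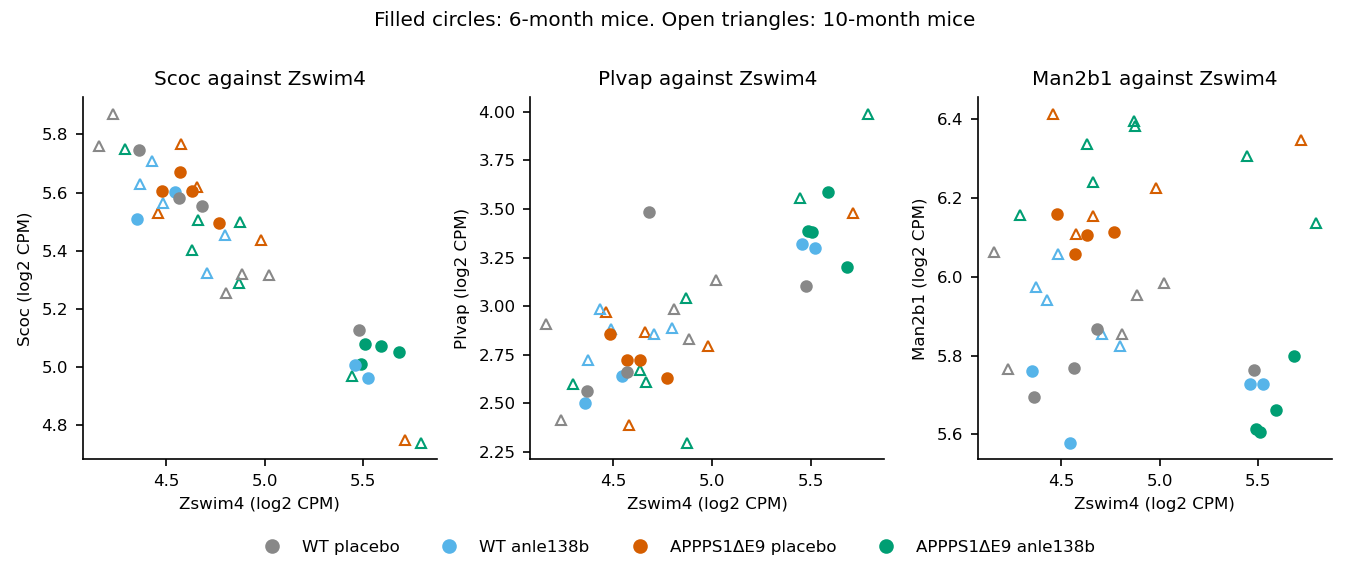
Scoc, Plvap and Man2b1 (y axes, log2 CPM) against Zswim4 (x axis, log2 CPM) in each mouse, with filled circles for 6-month and open triangles for 10-month mice, colored by group. Scoc falls along a line with rising Zswim4 in both cohorts, with r of -0.95 within the 10-month groups, while Man2b1 shows r of -0.02.

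Whether anle138b changed the 6 genes was tested in the mice that had not served to choose them. In the 6-month WT mice 0 of 6 members passed an adjusted p of 0.1 (edgeR quasi-likelihood test with Benjamini-Hochberg adjustment), as did 0.0% of 16766 genes, with 310 genes at an unadjusted p under 0.05. DESeq2 called 2 genes, none of them a member. No member was free of overlap between the groups, against 1.5% of genes. Zswim4 had a log2 fold change of 0.23 ± 0.38 (SE, adjusted p = 0.9998) and Scoc of -0.22 ± 0.20. Both groups held mice at the high and at the low level of each gene.

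In the 10-month APPPS1ΔE9 mice, the counterpart of the comparison that chose the genes, Zswim4 had a log2 fold change of 0.07 ± 0.28 with anle138b (edgeR adjusted p = 0.9991), against 0.95 ± 0.07 at 6 months. Scoc had -0.12 ± 0.18, Plvap 0.15 ± 0.30, Pcnx2 -0.10 ± 0.11, Man2b1 0.03 ± 0.06 and Coq9 0.00 ± 0.07. Called were 0 of 6 members and 0.0% of 17110 genes, with 254 genes at an unadjusted p under 0.05 and 0 calls by DESeq2. No member was free of overlap, against 0.0468% of genes. Without high mouse C the value of Zswim4 became -0.11, and without high mouse A it became 0.35. In the 10-month WT mice the changes were between -0.10 (Zswim4, SE 0.17) and 0.07 (Pcnx2, SE 0.10), with 0 members and 0.0% of 16986 genes called by edgeR and 0 by DESeq2, and 212 genes at an unadjusted p under 0.05. No member was free of overlap there, against 0.265% of genes. In the fit over all 22 mice with genotype as a term, no member and 0.0% of 17668 genes passed for chow, with 161 genes at an unadjusted p under 0.05 and 0 calls by DESeq2. The interaction of genotype and chow also gave 0 members and 0.0% of genes, with 407 genes at an unadjusted p under 0.05 and 2 calls by DESeq2, and was 0.17 ± 0.36 for Zswim4. Whether the chow difference itself differs between 6 and 10 months was not tested, since the 6-month value chose the genes.

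Of the 6 genes, Man2b1 alone passed the test between genotypes at 10 months. All WT mice of this age were in lanes 3 and 4 and all APPPS1ΔE9 mice in lanes 5 and 6. Genotype and lane thus cannot be told apart in these comparisons. Man2b1 had 54.4, 63.3, 57.8, 66.8 and 61.9 CPM in placebo-treated WT mice and 61.3, 66.55, 57.8, 62.7 and 56.6 CPM in anle138b-treated WT mice. It had 85.15, 68.9, 71.2, 74.8 and 81.3 CPM in placebo-treated APPPS1ΔE9 mice, and 70.3 to 84.1 CPM with a median of 79.1 CPM in the 7 anle138b-treated ones. All 12 APPPS1ΔE9 mice were thus above all 10 WT mice. On anle138b the log2 fold change of APPPS1ΔE9 over WT was 0.35 ± 0.06 (edgeR adjusted p = 0.0127), as 1 of 6 members called, against 0.723% of 17151 genes. On placebo it was 0.32 ± 0.08 and missed the threshold (adjusted p = 0.237), with 0 members called against 0.324% of 16971 genes. With DESeq2 it passed (adjusted p = 0.0338), and Man2b1 was then the only member called. Man2b1 was the only member free of overlap in either comparison, against 1.4% of genes on placebo and 0.875% on anle138b. Over both chows the log2 fold change was 0.34 ± 0.05 (edgeR adjusted p = 8.21e-05), as the only member called, against 1.56% of 17668 genes. The median change over all genes was -0.004. Mice without Ddx3y made up 6 of the 10 WT and 1 of the 12 APPPS1ΔE9 mice in this comparison. Among the mice with Ddx3y, Man2b1 was between 61.3 and 66.55 CPM in 4 WT and between 68.9 and 85.15 CPM in 11 APPPS1ΔE9 mice, without overlap. With Y-linked expression as a covariate its log2 fold change was 0.32 (edgeR adjusted p = 0.00165) over both chows and 0.28 (adjusted p = 0.834) on placebo.

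The other 5 genes did not pass in any genotype comparison at 10 months. Over both chows Zswim4 had a log2 fold change of 0.37 ± 0.18 (edgeR adjusted p = 0.701), with overlapping groups and the 3 high mice all APPPS1ΔE9. Plvap had 0.15 ± 0.17, Coq9 0.06 ± 0.04, Pcnx2 -0.11 ± 0.08 and Scoc -0.14 ± 0.12. At 6 months, where the APPPS1ΔE9 mice had served to choose the genes, Man2b1 was 0.34 ± 0.05 higher in APPPS1ΔE9 than in WT mice on placebo and -0.02 ± 0.06 different on anle138b, given as a description. Zswim4 was -0.22 ± 0.24 on placebo and 0.51 ± 0.28 on anle138b, and its groups overlapped on both chows. On placebo Pcnx2 was 0.35 ± 0.08, Coq9 -0.21 ± 0.06, Plvap -0.27 ± 0.18 and Scoc 0.08 ± 0.11. On anle138b these genes were at -0.12 ± 0.08, 0.07 ± 0.05, 0.42 ± 0.19 and -0.24 ± 0.15 in the same order, also as a description.

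**Figure D4:**
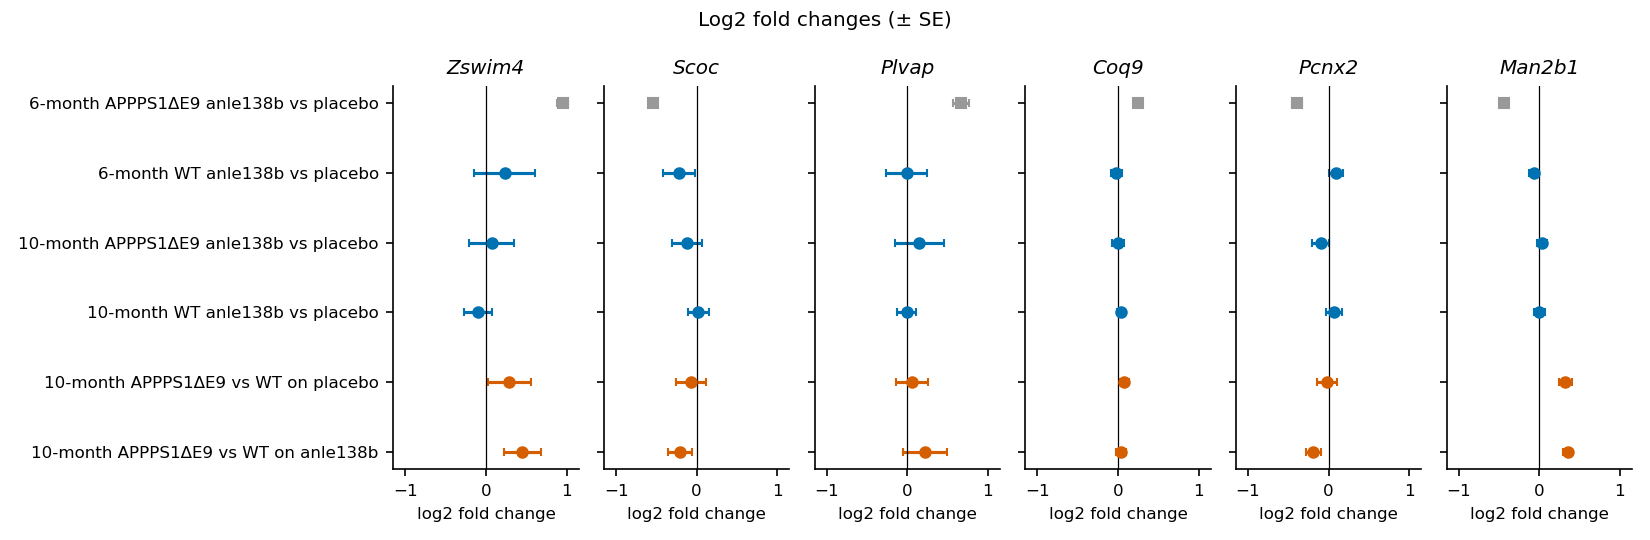
Log2 fold change of each gene (x axis, edgeR, bars are SE) in 6 comparisons (y axis), with the comparison that chose the genes as gray squares, the other chow comparisons in blue and the 10-month genotype comparisons in orange. Zswim4 lies at 0.95 in the comparison that chose it and between -0.10 and 0.23 in the other chow comparisons, and Man2b1 lies at 0.32 and 0.35 in the genotype comparisons.

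Other lysosomal genes rose in the same comparison. Of the 11 other genes of lysosomal glycoprotein degradation, 4 rose in APPPS1ΔE9 mice over both chows and none fell, with a median log2 change of 0.07 over the 11. Among them were Ctsd, a lysosomal protease (0.85 ± 0.06, edgeR adjusted p = 1.47e-08), Hexa, a lysosomal glycosidase (0.52 ± 0.04, adjusted p = 9.49e-08), and Ctsa, the protective protein of sialidase (0.21 ± 0.05, adjusted p = 0.0681), a gene named after its value was seen. Markers of microglia moved in the same comparison. Of 7 microglial markers 5 rose, 1 of which is also in the lysosomal list, and the summed level was between 328.5 and 423.6 CPM in 10-month WT and between 443 and 719 CPM in APPPS1ΔE9 mice. All 6 plaque-associated markers rose, with a median log2 change of 2.33, from 33.1 to 45.1 CPM summed in WT to 75.4 to 159.3 CPM in APPPS1ΔE9 mice. The part of microglia in the change of Man2b1 was not tested. In no tested comparison did any gene pass among the 12 other genes of coenzyme Q synthesis, the 3 other pecanex genes found in the annotation, the 7 other SWIM zinc finger genes tested, the 6 Scoc partners and the 7 other genes of fenestrated or angiogenic endothelium. The 8 choroid plexus and 8 endothelial markers gave no call either.

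The genes most like each member were ranked by Pearson r over all 38 mice, each gene taken as log2 CPM minus its group mean, and are given as a description. Zswim4 and Scoc had r of -0.95 with each other. Apart from members, Zswim4 was most like Tdpx-ps1 on chromosome 1 (0.75) and Mau2, a cohesin loader of chromosome 8 (0.74), with Plvap at 0.74. Scoc was most like Gcdh, a mitochondrial dehydrogenase 1.46 Mb from it (0.75), Zfp85os on chromosome 13 (0.75) and Npepps on chromosome 11 (0.73). Plvap was most like its neighbor Ccdc194 (0.77), Gm5315 on chromosome 6 (0.75) and Zswim4, and Coq9 was most like Zswim4 (0.69), Trappc2l on chromosome 8 (0.69) and Plvap (0.68). Pcnx2 was most like Nckipsd (0.85), Gen1 (0.79) and Ptprn (0.78), and Man2b1 most like Tmem147os (0.71), with Mybbp1a at 0.63, all 5 on other chromosomes. Of the 20 genes most like Zswim4, 9 were on chromosome 8, which holds 5.47% of the genes tested. The numbers were 9 for Coq9, 7 for Plvap, 6 for Scoc, 3 for Pcnx2 and 2 for Man2b1. These counts include other members, which were chosen for lying on chromosome 8. With all members left out of the ranking, 8 of the 20 genes most like Zswim4 were on chromosome 8, and 7 for Coq9, 6 for Plvap, 5 for Scoc, 3 for Pcnx2 and 2 for Man2b1. An absolute r over 0.5 with Pcnx2 was found in 12.7% of chromosome 8 genes and 14.0% of all genes. For Scoc these shares were 10.1% and 10.5%, for Plvap 6.02% and 3.45%, for Coq9 2.41% and 0.631%, and for Man2b1 1.20% and 0.845%.

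Along chromosome 8 the likeness to Zswim4 was not general. An absolute r over 0.5 was found in 8.23% of chromosome 8 genes and in 7.42% of all genes. It was more frequent in a stretch from 20 to 10 Mb before Zswim4, where 6 of 23 genes (26.1%) and 21 of 121 genes (17.4%) in its 2 bins passed 0.5, Plvap and Mau2 among them. Between 10 and 5 Mb before Zswim4 0 of 20 genes did, and in the 5 Mb before and after its start 5 of 50 and 6 of 66 did. These bins include other members, with Scoc among the 5, while the counts within 1 Mb below leave members out. Within 1 Mb of Zswim4, 7 of 64 genes passed 0.5, with Gcdh at -0.80. Within 1 Mb of Plvap 13 of 75 genes passed 0.5 with Zswim4, and within 1 Mb of Man2b1 5 of 51 did. With the level of Plvap itself 17 of its 75 neighbors passed 0.5, and with that of Man2b1 1 of its 51. The bins were set after earlier results of these data were known, and points share the same 38 libraries.

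**Figure D5:**
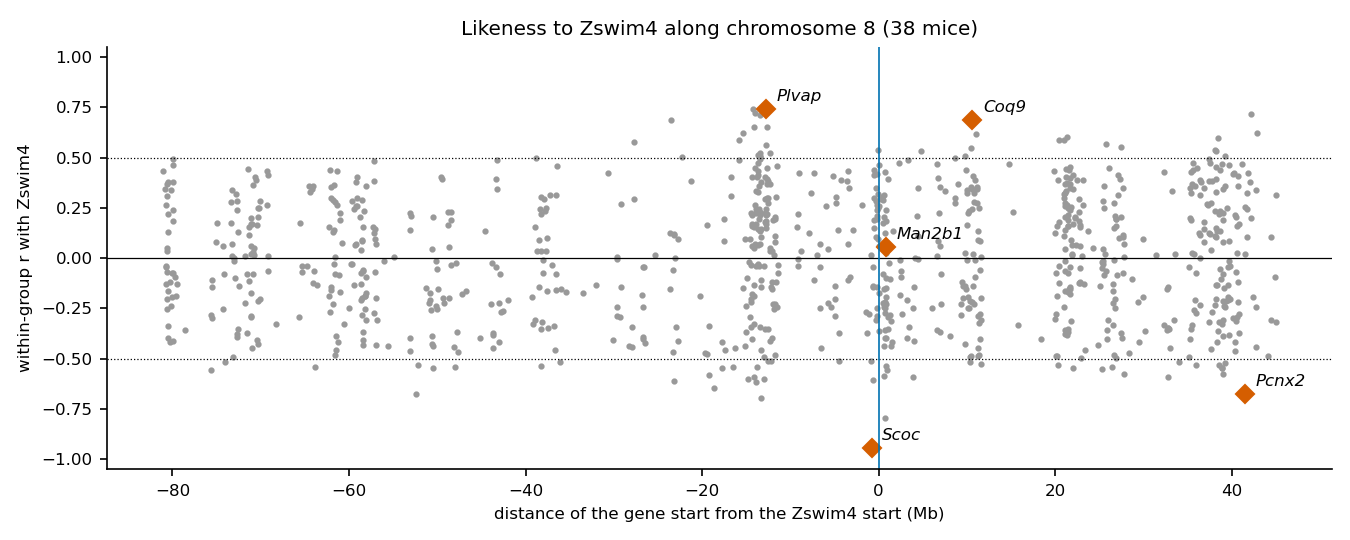
Correlation with Zswim4 (y axis, Pearson r of deviations from group means over 38 mice) of each chromosome 8 gene, against the distance of its start from that of Zswim4 in Mb (x axis), with the members as orange diamonds and dotted lines at 0.5 and -0.5. Scoc lies at -0.95 beside Zswim4, Man2b1 at 0.05 on its other side, and 13 of the 75 neighbors within 1 Mb of Plvap lie beyond the lines.

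Neighbors of the members were called in 1 tested comparison. Of 223 genes within 1 Mb of a member, 5 were higher in 10-month APPPS1ΔE9 mice over both chows and 0 lower, against 1.56% of all genes. They were Dnase2a, a lysosomal nuclease (0.43 ± 0.07, edgeR adjusted p = 0.000374), Ifi30, a lysosomal thiol reductase (0.44 ± 0.12, adjusted p = 0.0915), 6330537M06Rik beside it (0.77 ± 0.21, adjusted p = 0.0863), Bst2, an interferon-induced membrane protein (0.59 ± 0.16, adjusted p = 0.0893), and Lyl1, a transcription factor (0.53 ± 0.15, adjusted p = 0.0971). No neighbor was called in the other 7 tested comparisons by edgeR. In the same fit chromosome 8 as a whole had 14 of 967 genes called, or 1.45%.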

How the data were processed

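Hippocampal mRNA of 38 mice was sequenced after TruSeq library preparation. The authors mapped the reads to mm10 with STAR and counted them per gene with HTSeq, and deposited raw read counts for each mouse, without normalization. The annotation release and the strand setting are not given in the sources used here. From the deposited counts, genes passing filterByExpr (minimum count 10, minimum total 15) were scaled by TMM, and differences were assessed by the edgeR quasi-likelihood test (glmQLFit, robust) per pair of groups or over all 22 10-month mice, with Benjamini-Hochberg adjusted p-values under 0.1 called. Levels are CPM with TMM, and log2 CPM has a prior count of 2. SE is the log2 fold change over the root of F. The work used edgeR 4.0.16 and DESeq2 1.42.0 under R 4.3.3, and Python 3.11.15. Counts of 48349 genes had a GENCODE M21 entry. Scripts were tested on simulated data.

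The members, lists and bins were chosen with earlier results of these data known. Named are the 6 members, App and Prnp, the 3 genes most like each member, and called genes, up to 3 per list and up to 3 within 1 Mb of each member, with Ctsa and examples of markers added. Some genes under this rule are not reported here. The comparison that chose the members, and those sharing its mice, are described without a test. Libraries of a group differed from each other beyond counting noise (chi-square of at least 2.99 per degree of freedom), and no mouse was left out. Alternatives were DESeq2, RLE, no filter, a threshold of 0.05, Y-linked expression as a covariate, a single fit of 4 groups, the replicate number as a block, single lanes, a prior count of 0.5, library totals, a 5 Mb window and each mouse left out in turn. Depth, 15847985 to 31895808 counts, bounds the precision of low genes such as Plvap.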

Additional observations from a re-analysis of the deposited data

Results flagged for a closer look

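Among 48 groups of mice and genes examined for a single mouse far from the rest of its group, 1 stood out, and chance gives such a mark in about 1 of 20 groups. It was Pcnx2 in the placebo-treated WT mice of 10 months, where mouse 55 had 136.8 CPM and the 4 others between 112.6 and 117.1 CPM. The gap of mouse 55 to the next mouse took up 0.799 of the range of log2 values. The same mouse had the lowest Zswim4 of the cohort (17.8 CPM) and 54.15 CPM of Scoc. The cause was not tested.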

How the results depend on the processing

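Man2b1 was higher in 10-month APPPS1ΔE9 than in WT mice under every alternative run. Over both chows its adjusted p was between 1.49e-09 and 0.00165 over 26 alternatives, and on anle138b between 2.4e-05 and 0.0542 over 17, the replicate block aside. On placebo the members called rose from 0 to 1 with DESeq2 and with all 4 groups in a single fit (Man2b1, adjusted p = 0.0338 and 0.0382), and over 15 alternatives its adjusted p ranged up to 0.834. DESeq2 called 116 genes there against 55 with edgeR, the Y-linked covariate 14 and the replicate block 25. On anle138b 124 genes were called with edgeR, 188 with DESeq2, 272 with the covariate, and 63 to 151 without a mouse. In the comparison that chose the members 9 genes were called with edgeR, 208 with DESeq2, 120 without the filter, 94 with the covariate and 6 to 317 without a mouse. The members kept their directions there. The count of correlated pairs was 9 or 10 in all alternatives. In the WT mice of 6 months alone, an alternative chosen after seeing the data, the gap of Man2b1 was 0.12 against 0.19. The percentage of neighbors called was within 1.5 times that of the 1 Mb window with a 5 Mb window. A 0.05 threshold changed no count of members.

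The replicate numbers are running numbers within groups, and the check of pairing gave correlations of same-numbered mice between -0.55 and 0.57, with every pair over 0.1 in 0 of 8 comparisons. The mouse most like a mouse carried the same number for 10 of 40. With the replicate block, the members called on anle138b went from 1 to 0 (Man2b1 0.37, adjusted p = 0.128, 20 genes called), and Coq9 was -0.02 and Plvap -0.23 there. For chow in 10-month APPPS1ΔE9 mice the block gave Zswim4 -0.21, Scoc 0.07, Coq9 -0.06 and Plvap -0.26, and for genotype over both chows Plvap -0.08. It changed no other call of a member.

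The other changes of direction concerned log2 fold changes that had not passed or were given without a test. With the Y-linked covariate, Coq9 was 0.01 and Plvap 0.05 for chow in 6-month WT mice, Zswim4 0.03 and Plvap 0.03 for genotype on placebo at 6 months (with Coq9 at -0.10 against -0.21), Man2b1 -0.0047 and Coq9 -0.0036 for chow in 10-month WT and APPPS1ΔE9 mice, and Scoc 0.11, Pcnx2 0.01 and Plvap -0.02 for genotype on placebo at 10 months. In lane 4 alone, Pcnx2 was -0.01 and Coq9 0.03 for chow in 6-month WT mice, and Man2b1 -0.02, Coq9 -0.02 and Plvap 0.04 in 10-month WT mice. In lane 5 alone, with a single anle138b-treated mouse assumed to vary like the others, Zswim4 was -0.32, Coq9 -0.05 and Plvap -0.27 in 10-month APPPS1ΔE9 mice.

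With each mouse left out in turn, 16 log2 fold changes, of at most 0.22 in size, changed direction. For chow in 6-month WT mice the ranges were -0.07 to 0.02 for Coq9 and -0.14 to 0.20 for Plvap. For chow in 10-month WT mice they were -0.20 to 0.01 for Zswim4, -0.05 to 0.11 for Scoc, -0.03 to 0.04 for Man2b1 and -0.10 to 0.07 for Plvap. For chow in 10-month APPPS1ΔE9 mice they were -0.11 to 0.35 for Zswim4, -0.0034 to 0.07 for Man2b1, -0.03 to 0.04 for Coq9 and -0.08 to 0.33 for Plvap. For genotype on placebo they were -0.35 to 0.08 for Zswim4 and -0.03 to 0.16 for Scoc at 6 months, and -0.16 to 0.06 for Scoc, -0.09 to 0.09 for Pcnx2 and -0.12 to 0.18 for Plvap at 10 months, and on anle138b at 10 months -0.01 to 0.32 for Plvap. The cause of these changes was not tested. Plvap, with as few as 84 counts in a mouse, is the member whose precision depth limits most.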

Other observations

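The Y-linked gene Ddx3y, an RNA helicase gene looked at after its values were seen, also took 2 levels. In the 26 mice that expressed it, 11 were between 52.99 and 76.3 CPM and 15 between 102 and 136 CPM, with a gap of 0.42 log2 units. Of the 10 mice above the Zswim4 gap of their cohort, 8 expressed Ddx3y, all of them at 52.99 to 76.3 CPM, and 2 did not express it. Of the 28 mice below the gap, 3 were in that lower range of Ddx3y, 15 in the higher one and 10 did not express it. These counts are given as values only.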
